A study of Medicago truncatula with 9 samples.

Results

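The miR395 family is a conserved group of plant miRNAs, small RNAs that pair with target transcripts and direct their cleavage. Its known targets in Arabidopsis are ATP sulfurylases, which catalyse the first step of sulfate assimilation, and the sulfate transporter SULTR2;1. In Arabidopsis the family is best known for its accumulation when sulfate is scarce. Small RNA was counted here for 10 entries of this family, which were chosen by name from the 905 entries of the count table. These were mtr-miR395a, mtr-miR395c, mtr-miR395d, mtr-miR395e, mtr-miR395f, mtr-miR395g, mtr-miR395i, mtr-miR395j, mtr-miR395l and mtr-miR395m. Several entries held the same counts in every library, so the 10 entries amounted to 4 distinct count profiles, each described once. The first was mtr-miR395a alone, the second mtr-miR395c with mtr-miR395f, the third mtr-miR395d with mtr-miR395e, mtr-miR395i, mtr-miR395j, mtr-miR395l and mtr-miR395m, and the fourth mtr-miR395g alone.

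The seedlings were Medicago truncatula genotype R108, germinated and grown for 72 h in 1 of 3 conditions. Alkali (AS) was a 5 mM mixture of Na2CO3 and NaHCO3, salt (SS) was a 20 mM mixture of NaCl and Na2SO4, and distilled water (DW) was the control, so that sulfate was part of the salt solution only. The study reports that the solutions also differed in pH and that the stressed seedlings were shorter. Effects of these differences, of the unequal concentrations and of the ions cannot be told apart here. Each condition had 3 libraries of whole seedlings. The study calls them biological replicates, describes 1 dish for each condition and does not say whether the replicates came from separate dishes, so the p-values measure the spread between these libraries, which may be technical. The total miRNA count was 4135854 to 6503979 in alkali, 3918174 to 7191272 in salt and 3746957 to 4554748 in distilled water. Levels are given as CPM, counts per 1000000 of a library total scaled by TMM, a method that evens out the bulk of the miRNAs between libraries. The TMM factors were 0.768 to 0.953 in alkali, 0.871 to 1.07 in salt and 1.07 to 1.35 in distilled water.

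All 10 entries were 21 nt long and had a mature sequence in the study's lists of responsive miRNAs. They are shown because entries of different count profiles have the same sequence. The capitals mark the seed, bases 2 to 8 from the 5′ end.
mtr-miR395a: aUGAAGUGuuugggggaacuc
mtr-miR395c: aUGAAGUGuuugggggaacuc
mtr-miR395d: aUGAAGUGuuugggggaacuc
mtr-miR395g: uUGAAGUGuuugggggaacuc
The sequence of mtr-miR395a was that of 9 of the 10 entries. mtr-miR395g differed from it by A1U, with positions counted from 1 at the 5′ end, and kept the same seed. Of 134 known miRNAs with a sequence in those lists, 13 had this seed, and all 13 were miR395 entries. Since mtr-miR395a, mtr-miR395c and mtr-miR395d had the same listed sequence but different counts, the counts did not follow the mature sequence alone. How reads were divided among these entries is not given in the sources used here, and the profiles are therefore not independent measurements.

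mtr-miR395a was far higher in alkali than in the other conditions, where it was scarce. It had 310, 214 and 151 counts in the alkali libraries AS1, AS2 and AS3, against 15, 12 and 28 counts in the distilled water libraries DW1, DW2 and DW3. The salt libraries SS1, SS2 and SS3 had 5, 7 and 9 counts. Every alkali library was above every other library, and the 3 conditions did not overlap. In CPM these were 63.9, 38.0 and 38.3 in alkali, 1.11, 2.05 and 1.19 in salt, and 2.96, 2.75 and 5.73 in distilled water. The means were 46.7 ± 14.9 CPM in alkali, 1.45 ± 0.523 CPM in salt and 3.82 ± 1.66 CPM in distilled water (SD, n = 3 each). The order of the levels was thus alkali, distilled water, salt. Among the 647 miRNAs tested, mtr-miR395a ranked 233rd by mean CPM in alkali, 633rd in salt and 580th in distilled water. In whole seedlings, a change in the cells that make the miRNA and a change in its amount per cell cannot be told apart.

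**Figure D1:**
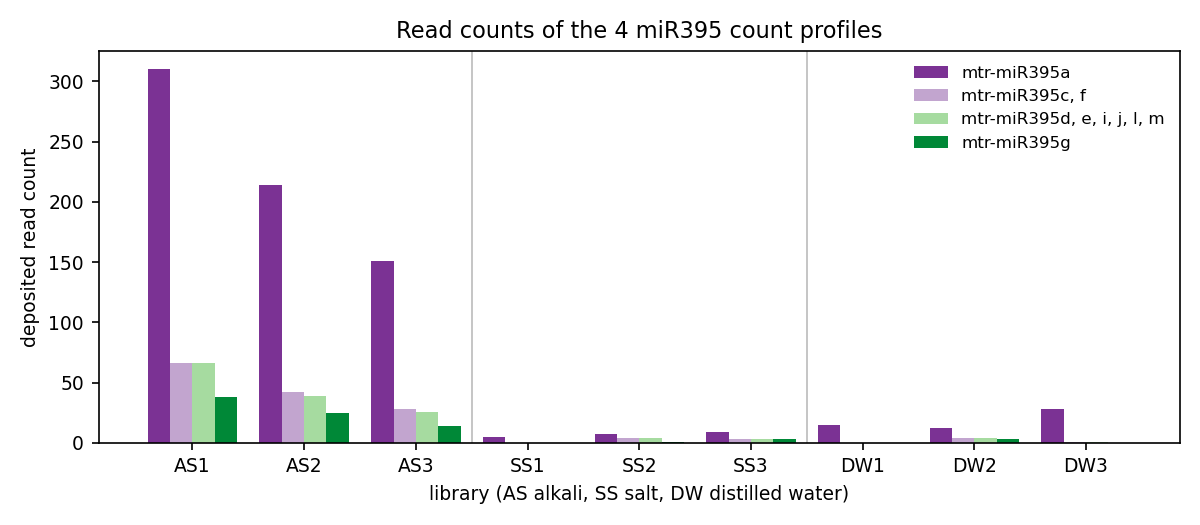
Deposited read counts (vertical axis, from 0) of the 4 miR395 count profiles in each of the 9 libraries (horizontal axis; AS alkali, SS salt, DW distilled water). mtr-miR395a reached 310 counts in AS1 and at most 28 counts in any salt or distilled water library, and the other profiles had at most 4 counts outside alkali.

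The other profiles were close to the limit of detection outside alkali. mtr-miR395d and the 5 entries with its counts had 66, 39 and 26 counts in AS1, AS2 and AS3, against 0, 4 and 1 counts in DW1, DW2 and DW3, while SS1, SS2 and SS3 had 0, 4 and 3 counts. mtr-miR395c and mtr-miR395f had the same counts in all but a pair of libraries, with 42 counts in AS2 and 28 in AS3. mtr-miR395g had 38, 25 and 14 counts in alkali, 0, 1 and 3 in salt, and 0, 3 and 0 in distilled water. For these 3 profiles the alkali libraries lay above all others, whereas the salt and distilled water libraries overlapped.

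On the CPM scale mtr-miR395d averaged 9.04 ± 3.96 in alkali, 0.522 ± 0.596 in salt and 0.374 ± 0.482 in distilled water (SD, n = 3 each). mtr-miR395c averaged 9.39 ± 3.66 CPM in alkali and had the same means as mtr-miR395d in the other conditions. mtr-miR395g was lower in alkali, at 5.28 ± 2.26 CPM, with 0.229 ± 0.205 CPM in salt and 0.230 ± 0.398 CPM in distilled water (SD, n = 3 each). A count of 0 allows up to 3 counts, which is 0.666 CPM in SS1 and 0.593 CPM in DW1, so only a large difference between salt and distilled water could be detected at this depth for these profiles. Such limits and the intervals below cover counting error only.

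**Figure D2:**
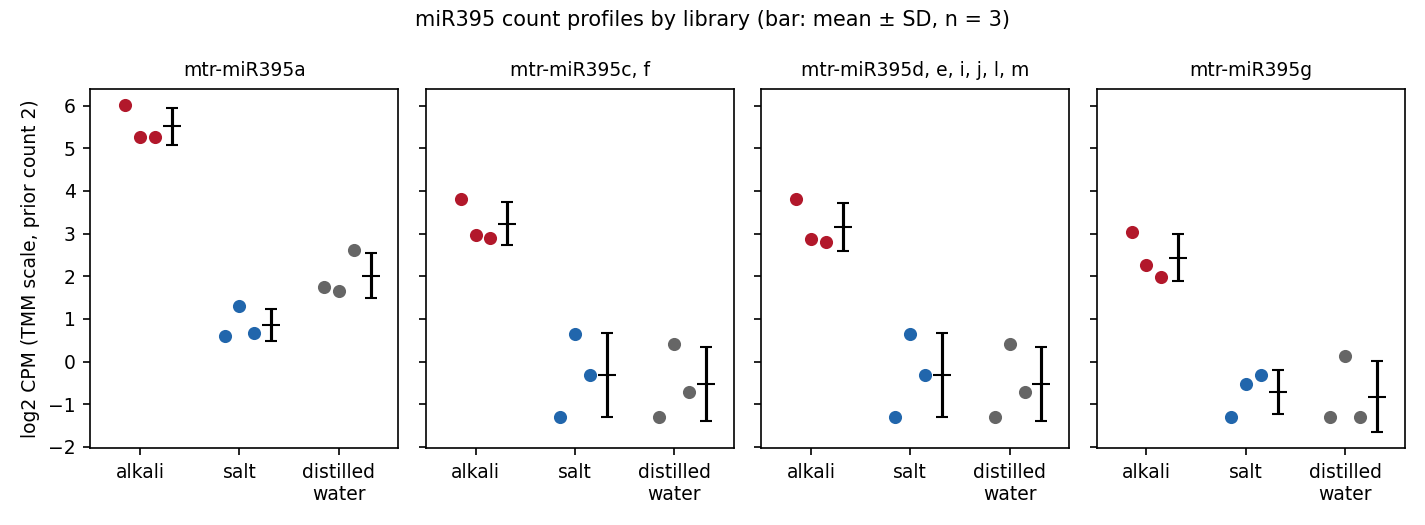
Level of the 4 miR395 count profiles in each library, as log2 CPM with a prior count of 2 (vertical axis), by condition (horizontal axis), with the mean ± SD of 3 libraries beside the points. The alkali points lie above all others in the 4 panels, and salt lies below distilled water without overlap only for mtr-miR395a, whereas the lowest points of the other panels are libraries with 0 counts.

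In alkali against distilled water, all 4 profiles rose, mtr-miR395a by 12.1 ± 2.45 times and the others by 22.6 to 25.0 times (fold ± standard error). The log2 fold change was 3.60 for mtr-miR395a (standard error 0.291, adjusted p = 5.45e-09 from edgeR, with the Benjamini-Hochberg method applied to all 647 miRNAs). It was 4.65 for mtr-miR395c (standard error 0.636) and 4.59 for mtr-miR395d (standard error 0.648), both with adjusted p = 1.57e-05 from edgeR. For mtr-miR395g it was 4.50 (standard error 0.724, adjusted p = 0.000110 from edgeR). The words rose and fell are used only where the adjusted p was below 0.05 and the change exceeded 1.5-fold. By entry, 10 of 10 rose, where 8.66% of all miRNAs tested rose, and for 10 of 10 the groups did not overlap, where alkali lay above distilled water without overlap for 17% of all miRNAs tested. These counts repeat the same measurements and are not support in themselves, because 9 of the 10 entries passed the filter on low counts only through their alkali libraries. mtr-miR395a also passed it in the salt and distilled water libraries alone.

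The fitted folds of the scarce profiles rest on few reads in distilled water. From the summed counts, mtr-miR395d had 131 counts in alkali against 5 in distilled water, a ratio of 26.0 with a 95% counting interval of 10.9 to 81.3. mtr-miR395c had 136 against 5 counts, a ratio of 27.0 (11.3 to 84.4). mtr-miR395g had 77 against 3 counts, a ratio of 25.4 (8.39 to 126). For mtr-miR395a the sums were 675 counts in alkali against 55 in distilled water, a ratio of 12.2 (9.24 to 16.3). The intervals of the scarce profiles hold the whole range of folds fitted for the family. Among the 490 distinct profiles tested, the 4 miR395 profiles took the 2nd to 5th places in alkali, after mtr-miR5211, while the median log2 fold change of all miRNAs tested was -0.17. The places of mtr-miR395c, mtr-miR395d and mtr-miR395g are not support in themselves, because these profiles passed the filter on low counts only through alkali.

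In salt against distilled water, mtr-miR395a fell to 0.361 ± 0.107 times its distilled water level (fold ± standard error), and the other profiles did not pass the test. Its log2 fold change was -1.47 (standard error 0.428, adjusted p = 0.0329 from edgeR). It was the 5th from the bottom of the 490 distinct profiles. The summed counts were 21 in salt against 55 in distilled water, a ratio of 0.352 with a 95% counting interval of 0.202 to 0.592. By entry 1 of 10 fell, where 4.17% of all miRNAs tested fell, and for this 1 entry the groups did not overlap, where salt lay below distilled water without overlap for 13% of all miRNAs tested. The call was lost when any 1 of the 6 libraries compared was left out, with adjusted p from 0.0535 without DW2 to 0.140 without SS3 from edgeR. The log2 fold change then ranged between -1.71 without SS2 and -0.99 without DW3, and the call held without AS1, AS2 or AS3. Most of these removals also cut the calls of the whole table, where 27 miRNAs fell in salt with all libraries. That number was 7 without DW1, 5 without DW2, 5 without SS1, 4 without SS2 and 6 without SS3, but 31 without DW3. The call of mtr-miR395a was also lost with limma-voom (adjusted p = 0.112), with DESeq2's size factors (adjusted p = 0.0541 from edgeR), with library sizes of clean reads (adjusted p = 0.103 from edgeR) and with the replicate number as a block (adjusted p = 0.0572 from edgeR). It held with DESeq2 (adjusted p = 0.0391), and over all alternatives adjusted p was between 0.00386, without DW1 and AS1 together, and 0.140.

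The remaining profiles had wide errors in the same comparison. The log2 fold change in salt was 0.36 for mtr-miR395c (standard error 1.04) and 0.36 for mtr-miR395d (standard error 1.05), both with adjusted p = 0.896 from edgeR. It was 0.25 for mtr-miR395g (standard error 1.22, adjusted p = 0.936 from edgeR). From summed counts, mtr-miR395d had 7 in salt against 5 in distilled water, a ratio of 1.29 whose 95% counting interval, 0.353 to 5.16, overlapped that of mtr-miR395a. mtr-miR395g had 4 against 3 counts, a ratio of 1.23 (0.208 to 8.40). The sign was not fixed either, since it turned negative without DW1 for all 3 profiles, without SS2 for mtr-miR395c (-0.48) and mtr-miR395d (-0.48), and without DW3 (-0.23) or SS3 (-0.63) for mtr-miR395g. Without DW1 the values were -0.18 for mtr-miR395c, -0.18 for mtr-miR395d and -0.26 for mtr-miR395g.

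**Figure D3:**
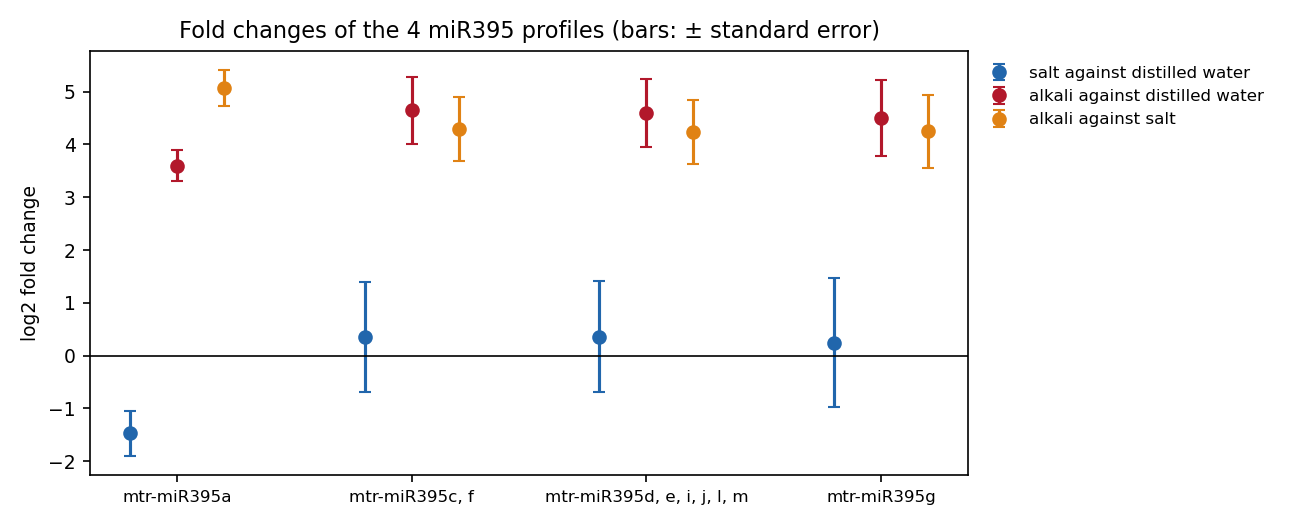
Log2 fold change ± standard error (vertical axis) of the 4 miR395 count profiles (horizontal axis) in the 3 comparisons, from edgeR's fit of all 9 libraries. In alkali against distilled water the values lie between 3.60 and 4.65, and in salt against distilled water mtr-miR395a is at -1.47 while the other profiles, at 0.25 to 0.36, have errors of over 1 that cross 0.

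The direct comparison of the stresses gave the widest difference for mtr-miR395a. In alkali against salt its log2 fold change was 5.07 (standard error 0.340, adjusted p = 2.43e-10 from edgeR), or 33.6 ± 7.90 times, the highest of the 647 miRNAs tested. The summed counts were 675 in alkali and 21 in salt, a ratio of 34.6 with a 95% counting interval of 22.4 to 56.2. mtr-miR395c, mtr-miR395g and mtr-miR395d followed in the next places, with log2 fold changes of 4.29, 4.25 and 4.24 and adjusted p of 2.76e-05, 0.000138 and 2.76e-05 from edgeR. By entry 10 of 10 rose, where 3.40% of all miRNAs tested rose, and for 10 of 10 the groups did not overlap, where alkali lay above salt without overlap for 14.8% of all miRNAs tested. As above, these counts and the places of the scarce profiles are not support in themselves, since 9 of the entries passed the filter only through alkali. All 4 profiles kept their calls in both alkali comparisons when any 1 of the 9 libraries was left out, with log2 fold changes for mtr-miR395a of 3.30 to 4.08 against distilled water and 4.77 to 5.31 against salt. AS1 had the highest level of every profile and the lowest TMM factor, and without DW1 and AS1 together all 10 entries still rose in both comparisons. Calls kept by the 9 entries that passed the filter only through alkali are not support in themselves either.

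The balance between the profiles was compared within each library, where scaling has no part. The count of mtr-miR395d was 21.3%, 18.2% and 17.2% of that of mtr-miR395a in AS1, AS2 and AS3. In SS1, SS2 and SS3 it was 0%, 57.1% and 33.3%, and in DW1, DW2 and DW3 it was 0%, 33.3% and 3.57%. This ratio of separate entries was narrow in alkali and scattered where counts were few. The log2 ratio of mtr-miR395a to mtr-miR395d, with 0.5 added to each count, averaged 2.39 ± 0.152 in alkali, 1.88 ± 1.41 in salt and 3.56 ± 1.84 in distilled water (SD, n = 3 each). In an exact permutation test, two-sided, p was 0.2 for salt against distilled water (difference -1.68), 0.4 for alkali against distilled water (difference -1.17) and 0.6 for alkali against salt (difference 0.51), and adjusted over these 3 comparisons it was 0.6 in each. With 3 libraries against 3 the smallest p possible is 0.1, so the test could not reach 0.05, and in SS1 and DW1 the ratio depended on the added 0.5. Whether mtr-miR395a and mtr-miR395d responded differently to salt is not settled by it. mtr-miR395c and mtr-miR395d differed by 3 counts in AS2, by 2 counts in AS3 and by none elsewhere. mtr-miR395g was at 58.8% of the summed counts of mtr-miR395d in alkali, 57.1% in salt and 60.0% in distilled water, the last 2 from few reads.

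The count table held 5 further entries with the family name. mtr-miR395n and mtr-miR395o had the counts and the listed sequence of mtr-miR395d. mtr-miR395h had C21U against mtr-miR395a and is shown to compare the ends.
mtr-miR395h: aUGAAGUGuuugggggaacuu
Its counts were 17, 11 and 11 in alkali, 0, 1 and 2 in salt, and 0, 2 and 0 in distilled water. From summed counts of 39 in alkali against 2 in distilled water, its ratio was 19.3 with a 95% counting interval of 5.01 to 165. mtr-miR395k had 12, 1 and 6 counts in alkali, 0, 0 and 5 in salt, and 2, 0 and 0 in distilled water, a ratio of alkali to distilled water of 9.42 (2.27 to 83.4). mtr-miR395b had at most 3 counts in any library. mtr-miR395h, mtr-miR395k and mtr-miR395b had too few counts for the test.

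Other miRNAs tied to plant nutrition were counted as context, with a list chosen when earlier results of these data were known. It held the copper miRNAs miR397, miR398 and miR408, which target copper proteins such as laccases, superoxide dismutases and plantacyanins, the phosphate miRNA miR399, and miR2111, a mobile miRNA that targets TOO MUCH LOVE in legumes. Of 21 entries tested, which held 14 distinct profiles, 19 fell in salt and 0 rose. Of all miRNAs tested 4.17% fell, or 27 entries, which include these 19. Among the 19 were 15 miR2111 entries with 8 distinct profiles, whose calls depended on single libraries, as given below. In alkali against distilled water 2 of the 21 fell, both of miR398, and 0 rose, where 8.50% of all miRNAs tested fell, so the count was near the background. In alkali against salt 3 rose, 2 of miR398 and 1 of miR408, where 3.40% of all miRNAs tested rose. The 2 of miR398 were mtr-miR398b and mtr-miR398c, whose counts were nearly the same, so they are close to 1 measurement. Without TMM, 5 of the 21 fell in alkali against distilled water, among them mtr-miR397-5p, mtr-miR408-3p and mtr-miR2111l, but so did 255 of all 647 miRNAs tested.

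By family, salt lowered 3 of 4 miR398 entries, 1 of 1 miR408 entry, 15 of 15 miR2111 entries (8 distinct profiles) and 0 of 1 miR397 entry. In alkali against distilled water 2 of 4 miR398 entries fell, neither of them mtr-miR398b or mtr-miR398c, so the family was split there. mtr-miR398b had 51.2, 35.3 and 43.4 CPM in alkali, 7.33, 12.02 and 9.88 CPM in salt, and 33.4, 48.0 and 45.02 CPM in distilled water. Its salt libraries lay below all others, while alkali and distilled water overlapped. Its log2 fold change was -2.12 in salt (adjusted p = 1.88e-06 from edgeR) and 0.04 in alkali (adjusted p = 0.894 from edgeR). mtr-miR408-3p was similar, at -2.44 in salt (adjusted p = 2.80e-05 from edgeR) and -0.50 in alkali (adjusted p = 0.157 from edgeR). mtr-miR2111l was at -0.84 in salt (adjusted p = 0.0291 from edgeR), a call lost without any distilled water library, SS2 or SS3. The number of miR2111 entries that fell in salt was 0 without any 1 distilled water library, SS2 or SS3, 1 without SS1, 1 without DW1 and AS1 together, 3 with DESeq2 and 0 with library sizes of clean reads. That of miR398 was 2 without DW1, SS1 or SS2 and 4 without AS1. mtr-miR397-5p was at -1.12 in salt (adjusted p = 0.0776 from edgeR) and at -0.34 without DW3, the library with its highest level, 14.5 CPM. It fell in salt under some alternatives, among them without DW1 or with only the 2 conditions compared. Under others, among them DESeq2 and limma-voom, it was not called. The 21 miR399 entries had too few counts for the test.

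**Figure D4:**
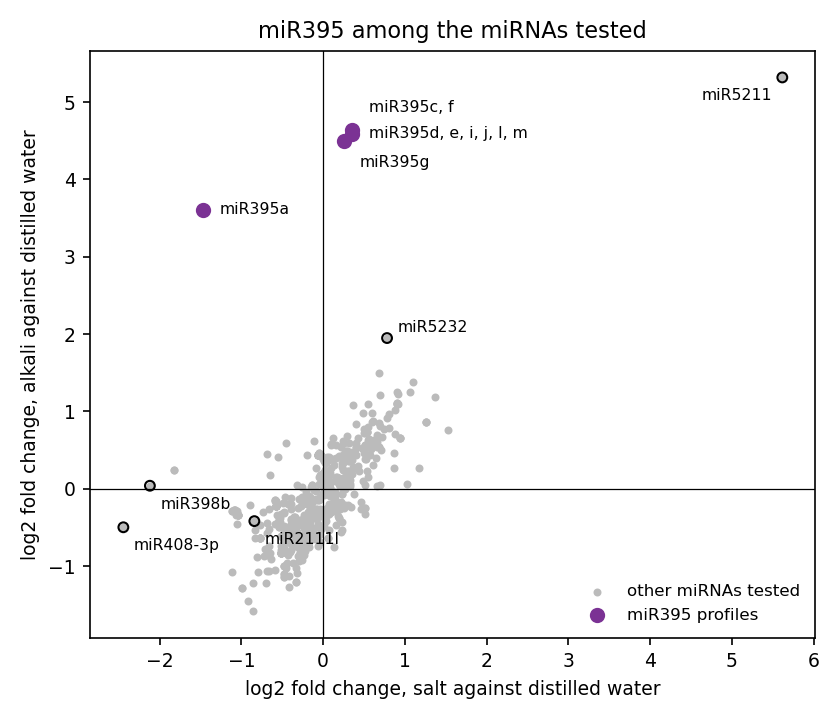
Log2 fold change in salt (horizontal axis) and in alkali (vertical axis), each against distilled water, of the 647 miRNAs tested, with the miR395 profiles filled in purple and some other miRNAs ringed. Both axes share their 3 distilled water libraries. mtr-miR395a lies at -1.47 and 3.60, the other miR395 profiles at 0.25 to 0.36 and 4.50 to 4.65, and mtr-miR398b at -2.12 and 0.04.

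The miRNAs with the pattern most like that of the family were found by the root mean square difference of log2 CPM over the 9 libraries, each centred on its mean. Within the family this difference was 0.04 between mtr-miR395c and mtr-miR395d, 0.40 to 0.42 between mtr-miR395g and these, and 0.85 to 0.91 between mtr-miR395a and the other profiles. Outside the family the nearest of 486 distinct profiles was mtr-miR5232, at 1.44 from mtr-miR395a and 1.14 from mtr-miR395d, where the median profile was at 2.07 and 1.87. It was more abundant and changed less, with 2236 ± 336 CPM in alkali, 996 ± 231 CPM in salt and 579 ± 127 CPM in distilled water (SD, n = 3 each). Its log2 fold change in alkali against distilled water was 1.95 (adjusted p = 8.80e-07 from edgeR). The next nearest to mtr-miR395a were mtr-miR398b (1.49), mtr-miR398c with nearly the same counts, mtr-miR169h (1.58) and unconservative_1_30619 (1.59). To mtr-miR395d they were unconservative_1_30619 (1.31), mtr-miR5266 (1.43), mtr-miR169l-5p (1.43) and unconservative_4_45654 (1.44). All of these were farther from the miR395 profiles than the 4 profiles were from each other. The 4 profiles are not independent measurements, so their closeness to each other is not support in itself.

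**Figure D5:**
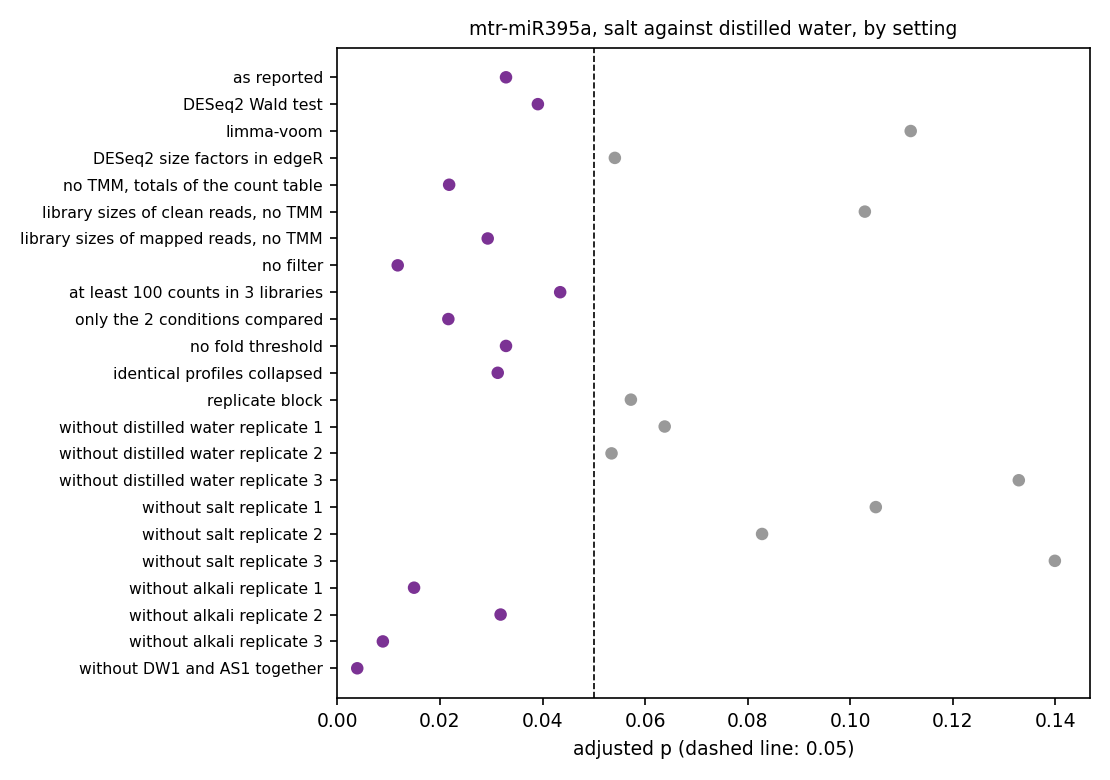
Adjusted p (horizontal axis, dashed line at 0.05) of mtr-miR395a in salt against distilled water as reported and under each alternative setting (vertical axis). The values range between 0.00386 and 0.140, and 10 lie to the right of the line, namely the 6 settings that left out 1 salt or 1 distilled water library, limma-voom, DESeq2's size factors, library sizes of clean reads and the replicate block.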

How the data were processed

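Small RNA libraries of whole seedlings were counted by the authors, who trimmed reads to small RNA lengths, used Bowtie to discard structural RNAs, and placed what was left on the genome with miRDeep-P and miRBase. The deposited counts are whole numbers of reads for each of 905 entries, and the deposited TPM values are these counts per 1000000 of the library's total, so the counts were used. All columns were matched to libraries by label, with 0 unmatched.

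The fit used edgeR 4.0.16 in R 4.3.3 (filterByExpr with a minimum count of 10, TMM, quasi-likelihood test with robust dispersions, all 9 libraries in 1 fit by condition, Benjamini-Hochberg over 647 miRNAs). Calls required adjusted p below 0.05 with more than a 1.5-fold change. Standard errors are the size of the log2 fold change divided by the square root of F. Ratios of summed counts use TMM-scaled totals and exact binomial (Clopper-Pearson) 95% intervals. The procedure was also run on simulated counts with changes set in alkali only, which does not bear on the calls in salt.

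The miRNAs named are the 10 entries, other entries of the family, a nutrient list (most abundant entry of each family) and the 5 nearest profiles. Members and lists were chosen with earlier results of these data known. miR827 was sought too, but 0 entries of the count table had that name. The labelled tissue could not be checked, since miRNAs give no defining markers for it. Alternatives were DESeq2 1.42.0, limma 3.58.1 (voom), other scalings and filters, fits of the 2 conditions compared, no fold threshold, identical profiles collapsed, a replicate block and libraries left out. DESeq 1.10.1, which the submitters' processing notes name, was not used.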

Additional observations from a re-analysis of the deposited data

How the results depend on the processing

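In alkali against distilled water and in alkali against salt, the miR395 calls held under every alternative that gave them an adjusted p. The filter of at least 100 counts in 3 libraries left only mtr-miR395a, so that 1 entry and 1 profile were called in each comparison, and DESeq2 gave mtr-miR395g no adjusted p in alkali against distilled water. Leaving out 1 library gave 10 entries and 4 profiles called in both comparisons. For the 9 entries that passed the filter only through alkali, this is not support in itself. Without TMM the median log2 fold change of all miRNAs moved by -0.44 in alkali and -0.23 in salt, and mtr-miR395a was at 3.15 and -1.67. In salt against distilled water, 0 entries and 0 profiles were called by limma-voom, with DESeq2's size factors, with library sizes of clean reads or with a replicate block, and 0 to 1 when 1 library was left out. The cause was not tested. mtr-miR395a kept its direction throughout, at -1.40 with limma-voom and -1.47 with the block, and adjusted p was 0.0572 from edgeR with the block. Same-numbered libraries did not deviate together (correlations of -0.54 to 0.31, over 0.1 in 3 of 9 pairs), and the block changed no other miR395 call. For the scarce profiles in salt, the log2 fold change without DW1 and AS1 was -0.21 for mtr-miR395c, -0.21 for mtr-miR395d and -0.30 for mtr-miR395g, and with single libraries removed it lay between -0.48 and 2.00, between -0.48 and 2.00, and between -0.63 and 3.49, in this order. The log2 ratio of mtr-miR395a to mtr-miR395d in alkali against salt was -0.057 without SS2 and reached 1.30 without SS1. With single libraries removed it ranged in salt from -2.72 to -0.98 and in alkali from -2.21 to -0.47, each against distilled water.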
